A study of Mus musculus with 12 samples.

Results

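Interferon gamma GTPases and chemokines are described here as 10 genes, Irf1, Gbp2, Gbp3, Gbp5, Gbp7, Irgm1, Igtp, Iigp1, Cxcl9 and Cxcl10, found by gene name among 55414 genes of 1 expression table. Whole lungs of 12 C57BL/6J-background mice were profiled by RNA-seq, and all 12 mice had received lipopolysaccharide (LPS), the bacterial cell wall component that induces acute lung injury (ALI), with lungs collected on the fourth day. In 6 IL-10 B-KO mice a floxed Il10 gene was removed by Mb1-Cre, a recombinase expressed from the B cell gene Cd79a, and 6 IL-10 B-WT mice were the controls; these are called knockout and control lungs. No lungs without LPS belong to these 12, so the values show how genotypes and lungs differ after LPS, and not the response to LPS itself. Expression is given in TPM, an expression unit in which reads are divided by transcript length and every library is scaled to 1 total, so that levels may also be compared between genes. All 10 members passed the filter of at least 1 TPM in at least 6 of the 12 libraries, whatever the genotype.

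Interferon gamma is a cytokine made mainly by T cells and natural killer (NK) cells. It binds the receptor IFNGR1 and IFNGR2, the kinases JAK1 and JAK2 are activated there, and the signal switches on a set of genes that includes the transcription factor Irf1. Among its best known targets are guanylate binding proteins (Gbp genes) and immunity related GTPases (Irgm1, Igtp and Iigp1), which act against microbes inside cells, and the chemokines CXCL9 and CXCL10, which attract T and NK cells that carry the receptor CXCR3. Several of these genes also answer to type I interferons, and IL-10 restrains the macrophages that respond to interferon gamma.

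The 4 Gbp members lie on 1 stretch of chromosome 3 in the mouse build GRCm38, Gbp5 at chr3:142493978-142522344, Gbp7 at chr3:142530342-142550149, Gbp3 at chr3:142560026-142573209 and Gbp2 at chr3:142620602-142638008, all on the plus strand. Cxcl9 (chr5:92321347-92328079) and Cxcl10 (chr5:92346638-92348889) are neighbours on the minus strand of chromosome 5 with 18558 bases between them. On chromosome 11 are Irf1 (chr11:53770014-53778374, plus), Irgm1 (chr11:48861968-48871683, minus) and Igtp (chr11:58199556-58207591, plus).

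Promoters were searched for letters known from genes of this pathway. The members were chosen as known interferon targets, so that such letters were likely in them whatever their values in these lungs. The windows ran from 250 bases before to 50 bases after the annotated start, taken from RefSeq on GRCm38.p6, and were held for 9 of the 10 members. The gamma activated site, known from genes induced by interferon gamma, was searched as TTCNNNGAA. The interferon stimulated response element, to which IRF proteins and the type I interferon complex bind, was searched as GAAA, 2 bases of any kind and GAAA. Of the NF-κB site only 1 form was searched, GGGA, 1 base of any kind and TTTCC. Each search covered both strands. The response element was found in 7 of the 9 members, against 3.99% of 27025 mouse genes in any of their promoters, and the gamma activated site in 4 of the 9, against 9.55%. Both were found in 3 of the 9 members (0.540% of all these genes) and the NF-κB letters in 1 (0.466%). Matches describe letters only, and binding was not measured. Other forms of the NF-κB site were not searched, so that a window without these letters may still hold one. Of the 4 promoters shown, those of Irf1 (chr11:53769764-53770063, plus), Gbp5 (chr3:142496684-142496983, plus), Igtp (chr11:58199306-58199605, plus) and Cxcl10 (chr5:92348840-92349139, minus), each stands for 1 arrangement of the motifs, and capitals mark the matches, 5′ to 3′.
Irf1: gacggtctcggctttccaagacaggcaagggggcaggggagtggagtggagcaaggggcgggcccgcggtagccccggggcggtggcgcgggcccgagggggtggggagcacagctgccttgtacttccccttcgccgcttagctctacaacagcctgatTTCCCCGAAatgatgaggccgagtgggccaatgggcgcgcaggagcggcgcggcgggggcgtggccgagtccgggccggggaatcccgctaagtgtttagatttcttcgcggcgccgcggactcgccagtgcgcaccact
Gbp5: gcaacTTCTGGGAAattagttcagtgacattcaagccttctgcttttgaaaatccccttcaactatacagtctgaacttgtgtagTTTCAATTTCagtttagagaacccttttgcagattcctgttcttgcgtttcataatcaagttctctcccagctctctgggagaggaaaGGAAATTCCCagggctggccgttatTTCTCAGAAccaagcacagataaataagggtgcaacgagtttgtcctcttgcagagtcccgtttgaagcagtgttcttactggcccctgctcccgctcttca
Igtp: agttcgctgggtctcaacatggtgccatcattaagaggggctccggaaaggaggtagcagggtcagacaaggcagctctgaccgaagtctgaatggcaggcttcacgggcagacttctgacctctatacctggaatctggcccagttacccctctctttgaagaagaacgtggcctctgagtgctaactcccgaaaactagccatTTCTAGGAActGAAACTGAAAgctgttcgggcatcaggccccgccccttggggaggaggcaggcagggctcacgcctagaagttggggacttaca
Cxcl10: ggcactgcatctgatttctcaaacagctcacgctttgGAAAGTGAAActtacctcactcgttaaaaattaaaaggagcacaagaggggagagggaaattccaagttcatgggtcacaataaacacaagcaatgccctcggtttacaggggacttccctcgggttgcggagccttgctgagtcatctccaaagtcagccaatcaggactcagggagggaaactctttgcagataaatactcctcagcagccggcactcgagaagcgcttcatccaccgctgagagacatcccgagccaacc
In Irf1, for which the first of its 2 annotated starts is shown, a single gamma activated site began 90 bases before the start. The Gbp5 window held 4 matches, 2 gamma activated sites at 245 and 52 bases, a response element at 165 bases and the NF-κB letters at 77 bases before the start. In Igtp both elements stood side by side, at 45 and 34 bases before the start. Cxcl10 carried a response element at 213 bases before the start. Among the members not shown, Gbp2 had a response element at 59 bases, Gbp7 had one at 53 bases with gamma activated sites at 106 and 87 bases, and Gbp3 and Irgm1 each had 2 response elements that overlapped, at 45 and 39 and at 30 and 24 bases. The Cxcl9 window held no match to these letters.

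The 12 libraries summed to between 991646 and 994430 TPM, had between 21380 and 24138 genes above 0, and included 0 identical pairs. TPM keep no record of the sequencing depth, which is therefore unknown, so that differences are judged against the variation among the 6 lungs of each genotype. Il10, the deleted gene, was low in both genotypes, with at most 0.88 TPM in control and at most 0.58 TPM in knockout lungs (exact permutation p = 0.745, two-sided), and did not separate the labels. In whole lung it can come from many cell types besides B cells. Cd79a, the gene from which Cre is expressed, lay between 15.3 and 258.6 TPM in control and between 0 and 5.73 TPM in knockout lungs, without overlap (log2 fold change −4.16, SE 0.71, limma adjusted p = 0.0222; exact permutation p = 0.00216, the smallest p that 6 against 6 lungs can give). In whole lung, fewer cells of a type and less RNA per cell cannot be told apart. Control replicate 1 and knockout replicate 5 stood apart from the other lungs in the members themselves, and the comparisons between genotypes are therefore given with and without them.

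To learn whether loss of Il10 in B cells went with a different interferon gamma response, the 10 members were compared between the genotypes. On the log2(TPM + 1) scale all 10 had a higher mean in knockout lungs. Their median log2 fold change was 1.13, beside 0.10 over the 15148 genes tested, of which 63.2% were also higher (50.8% after quantile normalization and 48.7% after median centring). However, 0 of the 10 passed the threshold in limma, an adjusted p of at most 0.05 and a log2 fold change beyond 1 or −1, which 0.495% of all genes passed. An unadjusted p of 0.05 was reached by 0 of the 10 and by 12.5% of all genes. The genotype difference of the members was thus smaller than the spread between lungs could resolve. No member separated the genotypes without overlap, which 1.02% of all genes did.

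Irf1 encodes the transcription factor that carries the signal to many later targets, and it had the highest level of the members, with a median of 137.6 TPM over the 12 lungs. Its values in control replicates 1 to 6 were 883, 122, 169, 95.9, 74.7 and 108 TPM. Those in knockout replicates 1 to 6 were 171, 136, 132, 254, 738 and 139.6 TPM. One lung of each genotype was thus several times above the other 5 of its group, and the other knockout lungs all lay above the control median of 115 TPM. Irf1 differed least of the 10 members, with a log2 fold change of 0.42 (95% interval −0.82 to 1.65, adjusted p = 0.759; exact permutation p = 0.502).

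Gbp2 showed the widest contrast among the guanylate binding proteins, GTPases that coat and break open the compartments in which microbes hide. The 6 control lungs held 509, 15.8, 48.3, 12.4, 12.7 and 9.23 TPM of Gbp2. Levels in the 6 knockout lungs were 56.0, 21.6, 66.5, 161, 682 and 65.7 TPM. With control replicate 1 set aside, 5 of 6 knockout lungs were above every remaining control lung. Over all 12 lungs the log2 fold change was 1.61 (95% interval −0.46 to 3.69, adjusted p = 0.486; exact permutation p = 0.182), which does not exclude a lack of difference.

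Gbp5, a GTPase that promotes inflammasome assembly, ranged from 4.13 to 307 TPM (median 7.87) in control and from 9.72 to 263 TPM (median 33.5) in knockout lungs. Gbp3 ranged from 12.6 to 206 TPM (median 16.8) and from 21.3 to 199 TPM (median 47.4). Gbp7 ranged from 8.17 to 91.4 TPM (median 10.4) and from 13.7 to 78.0 TPM (median 21.9). In each of these 3 genes the highest lung was an control lung, replicate 1, whereas the median was higher in knockout lungs. Their log2 fold changes were 1.37, 0.87 and 0.69, with adjusted p of 0.544, 0.568 and 0.587. In GENCODE M21, 10.0% of the 100-base windows of Gbp7 were shared with other genes, mostly with the overlapping gene model Gm43802, so that its level depends on how the authors' counting divided those reads.

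The immunity related GTPases followed the same order of lungs. Igtp, a GTPase that acts on vacuoles holding parasites and bacteria, measured 487, 29.6, 115, 33.7, 38.3 and 25.2 TPM in the 6 control lungs. In knockout lungs it measured 137.5, 49.6, 57.8, 257, 602 and 103 TPM. Only knockout replicate 5 exceeded every control lung, while 6 of 6 knockout lungs exceeded the control median of 36.0 TPM. Irgm1, a regulator that keeps the other immunity related GTPases inactive on the cell's own membranes, ranged from 25.4 to 357 TPM (median 28.3) in control and from 40.9 to 408 TPM (median 87.0) in knockout lungs. Iigp1, an effector that oligomerizes on parasite vacuoles, ranged from 15.9 to 480.3 TPM (median 22.0) and from 27.6 to 556 TPM (median 66.0). The log2 fold changes of Igtp, Irgm1 and Iigp1 were 1.13, 1.03 and 1.17, close to one another, and their adjusted p were 0.524, 0.517 and 0.551. Igtp shared 5.16% of its windows with Irgm2, and Irgm1 and Iigp1 shared 0.

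The chemokines varied most between lungs. Cxcl9 measured 1002, 12.3, 25.5, 2.28, 1.55 and 2.61 TPM in the 6 control lungs. In knockout lungs it measured 29.1, 2.63, 24.5, 65.7, 309 and 19.1 TPM. The direction of Cxcl9 depended on the scale, since a single lung, control replicate 1, held the control mean (174 ± 406 TPM, SD, n = 6) above the knockout mean (75.0 ± 116 TPM, SD, n = 6). The medians were 7.45 and 26.8 TPM, and the log2 fold change was 1.13 (95% interval −1.83 to 4.08, adjusted p = 0.726; exact permutation p = 0.500).

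Cxcl10 measured 861, 11.1, 58.6, 2.00, 3.80 and 9.27 TPM in control lungs. The knockout lungs held 89.5, 8.07, 69.5, 121, 1174 and 36.0 TPM. Here 5 of 6 knockout lungs lay above the control median of 10.2 TPM, and the log2 fold change of 1.95 was the largest among the members (95% interval −0.93 to 4.83, adjusted p = 0.532; exact permutation p = 0.232). Cxcl9 was above Cxcl10 in 3 control lungs and below it in all 6 knockout lungs. Their ratio had a median of 0.773 (0.282 to 1.16) in control and 0.339 (0.263 to 0.543) in knockout lungs (exact permutation p = 0.0952, a comparison chosen after the values were seen). The control median was 0.435 without control replicate 1 (exact permutation p = 0.190), without knockout replicate 5 the knockout median was 0.353 (exact permutation p = 0.152), and without both the exact permutation p was 0.302.

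**Figure D1:**
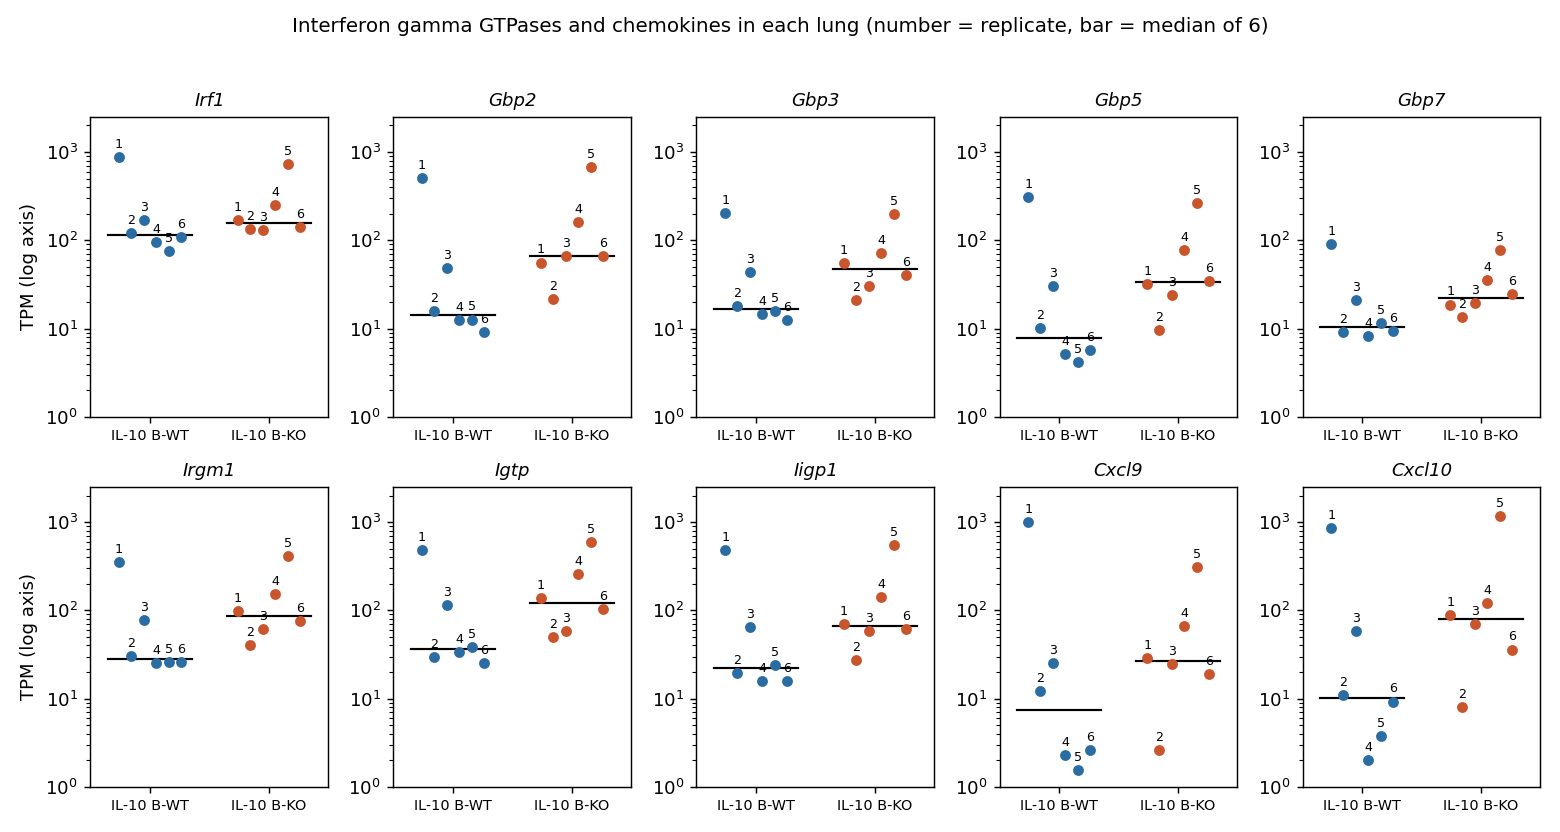
TPM of each of the 10 members (log axis) in the 6 IL-10 B-WT lungs (blue) and 6 IL-10 B-KO lungs (orange), with the replicate number at each point and a bar at the median of 6. Control replicate 1 and knockout replicate 5 are the top 2 lungs in every panel, and the IL-10 B-KO medians lie above the IL-10 B-WT medians in all 10.

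The order of the lungs was nearly the same for every member. Control replicate 1 and knockout replicate 5 were the 2 highest lungs for 10 of 10 members, and each was first for 5. Knockout replicate 4 came next for 10 of 10, and control replicates 4, 5 and 6 were among the lowest 4 lungs for 10 of 10. Over the 12 lungs, Spearman's rho between members ranged from 0.860 to 0.993 in 45 pairs (median 0.923), a description of genes measured in the same libraries. The members differed in how far the lungs were spread. Control replicate 1 exceeded the median of the other 5 control lungs 8.20-fold for Irf1, 9.81-fold for Gbp7, 40.3-fold for Gbp2, 92.9-fold for Cxcl10 and 384-fold for Cxcl9. Knockout replicate 5 exceeded the median of its other 5 lungs 4.05-fold for Gbp7, 5.29-fold for Irf1, 10.4-fold for Gbp2, 12.6-fold for Cxcl9 and 16.9-fold for Cxcl10. The chemokines thus had the widest range between lungs and Irf1 and Gbp7 the narrowest.

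Leaving out these lungs changed what the comparison could resolve. Both were picked because they were the highest of their group for every member. Leaving out control replicate 1 therefore had to raise the difference, and leaving out knockout replicate 5 had to lower it. The p values of these settings follow that choice and give no independent support. Leaving out any other single lung gave 0 of 10 at an unadjusted p of 0.05. Without control replicate 1, the median log2 fold change of the members was 1.80 and 10 of 10 reached an unadjusted p of 0.05 in limma (p = 0.00454 to 0.0420; exact permutation p = 0.013 to 0.0519), beside 17.9% of all genes that were higher at that p. Of the 10, 0 passed the adjusted threshold (adjusted p = 0.0628 for Gbp2 to 0.184 for Irf1), and 3.85% of all genes did. Without knockout replicate 5 the median log2 fold change was 0.64 and 0 of 10 reached an unadjusted p of 0.05, beside 3.4% of all genes that did so in the higher direction. With both set aside, a setting chosen after the values were seen, the median was 1.32 and 9 of 10 members, all but Cxcl9, reached an unadjusted p of 0.05 in limma, beside 12.7% of all genes that were higher at that p. The exact permutation p then lay between 0.0159 and 0.0952 and was at or below 0.05 for 6 of 10, being 0.0635 for Irf1, Igtp and Cxcl10 and 0.0952 for Cxcl9. Of the 10, 0 again passed the adjusted threshold (adjusted p = 0.0912 to 0.276), beside 0.711% of all genes. When limma gave each lung a weight from its own spread, 3 of 10 members, Gbp2, Igtp and Irgm1, reached an unadjusted p of 0.05, beside 11.1% of all genes that were higher at that p. The sign was positive for each member in each of these settings.

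**Figure D2:**
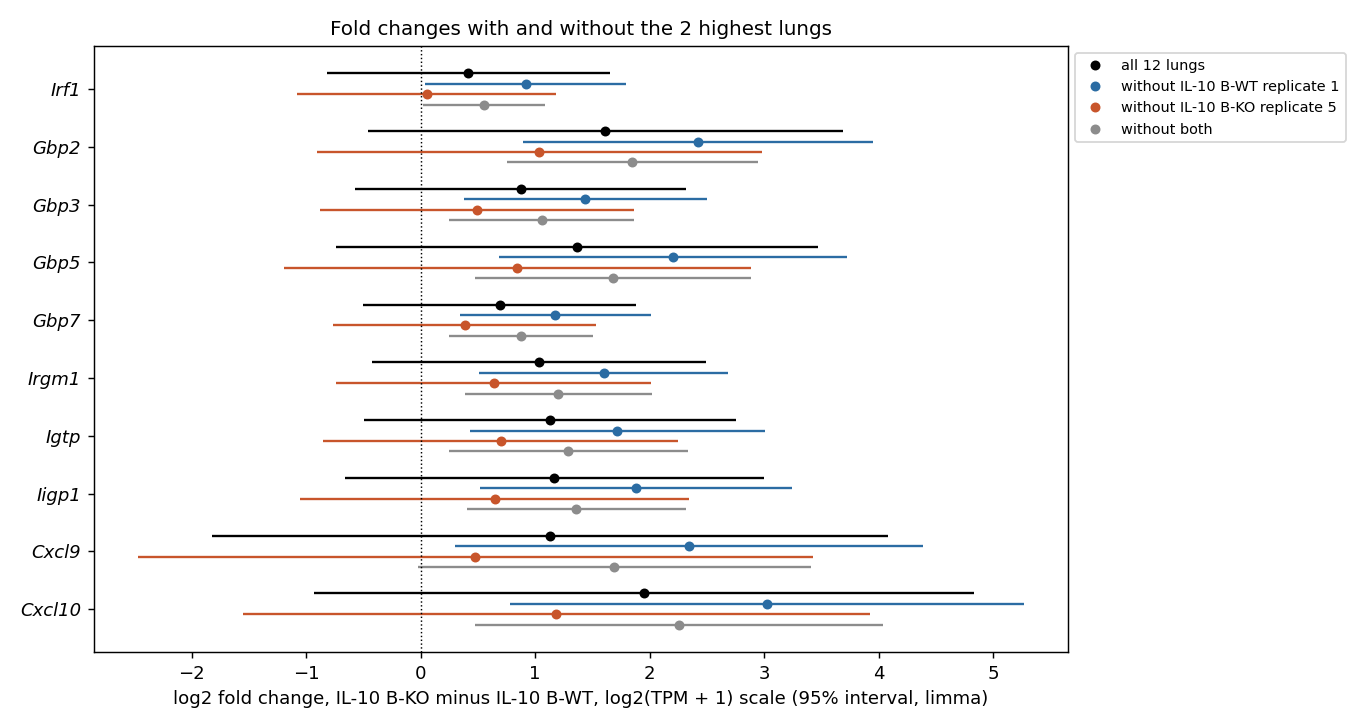
Log2 fold change of each member, IL-10 B-KO minus IL-10 B-WT on the log2(TPM + 1) scale, with its 95% interval from limma, for all 12 lungs (black), without IL-10 B-WT replicate 1 (blue), without IL-10 B-KO replicate 5 (orange) and without both (grey). Every interval includes 0 with all 12 lungs, and all 10 lie above 0 without IL-10 B-WT replicate 1, the highest IL-10 B-WT lung for every member.

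The ligand and its signalling chain were examined next. Ifng itself was low, between 0.17 and 9.92 TPM in control and between 0.43 and 10.3 TPM in knockout lungs, and did not pass (log2 fold change 0.23, SE 0.59, adjusted p = 0.880). Its highest values, 9.92 and 10.3 TPM, were in control replicate 1 and knockout replicate 5, the same lungs that led the members. Of 7 genes for interferon gamma and its inducers, 6 were tested and 0 passed, with 4 higher and 2 lower in knockout lungs, and the greatest differences were those of Il27 (0.61) and Tbx21 (0.51), the cytokine and the transcription factor that favour interferon gamma production. The receptor chains and both kinases were higher in 4 of 4 cases (2 of 4 after quantile normalization and 3 of 4 after median centring), their median log2 fold change was 0.17, and Jak2 (0.48) and Ifngr1 (0.23) led them. Inhibitors of the pathway were higher in 5 of 5 cases (4 of 5, all but Irf2, after quantile normalization or median centring), with a median of 0.50, led by Socs3 (1.21) and Socs1 (0.93), which block the kinases. Among all genes, 63.2% were higher in knockout lungs. With all 12 lungs, none of the genes in these lists passed the threshold or had an unadjusted p up to 0.05. In limma without control replicate 1, Jak2, Socs1, Socs3 and Ptpn2 were higher at that p (adjusted p = 0.109, 0.167, 0.0554 and 0.130), without both lungs Jak2, Socs3 and Ptpn2 were, and without knockout replicate 5 none was. Over all genes, 17.9%, 12.7% and 3.4% were higher at that p in these settings. Control replicate 1 was the highest control lung for Jak2, Socs1, Socs3 and Ptpn2, so that leaving it out had to raise their differences. No gene of these lists passed the adjusted threshold in any of the 3 settings.

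Across the 12 lungs the members were related to Ifng with Pearson's r of 0.840 (Gbp2) to 0.931 (Irf1) on the log2(TPM + 1) scale (permutation p adjusted over 10 pairs by Benjamini-Hochberg 7.25e-04 to 9.40e-04) and Spearman's rho of 0.566 (Gbp2) to 0.778 (Irgm1) (adjusted permutation p = 0.0594 to 0.0163). Without control replicate 1 and knockout replicate 5, the 2 lungs farthest from the median of Ifng, r fell to between 0.511 and 0.748 and rho to between 0.248 and 0.614, and 0 of 10 r and 0 of 10 rho passed an adjusted permutation p of 0.05 (0.0900 to 0.129 for r, 0.205 to 0.492 for rho). All 10 r stayed positive, and 5 of 10 (Irf1, Igtp, Gbp3, Irgm1 and Cxcl10) had an unadjusted permutation p up to 0.05, as did 0 of 10 rho. The relation to Ifng was thus weaker without these 2 lungs. Within control lungs r lay between 0.932 and 0.985 and rho between 0.600 and 0.943, and within knockout lungs r lay between 0.783 and 0.941 and rho between 0.486 and 0.829, with 1 of these lungs in each genotype. Gbp2, the member with the lowest r, measured 66.5 and 65.7 TPM in knockout replicates 3 and 6, at 0.46 and 0.43 TPM of Ifng, and 48.3 TPM in control replicate 3, at 2.85 TPM of Ifng. It was the only 1 of the 10 members for which both of these knockout lungs exceeded control replicate 3.

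**Figure D3:**
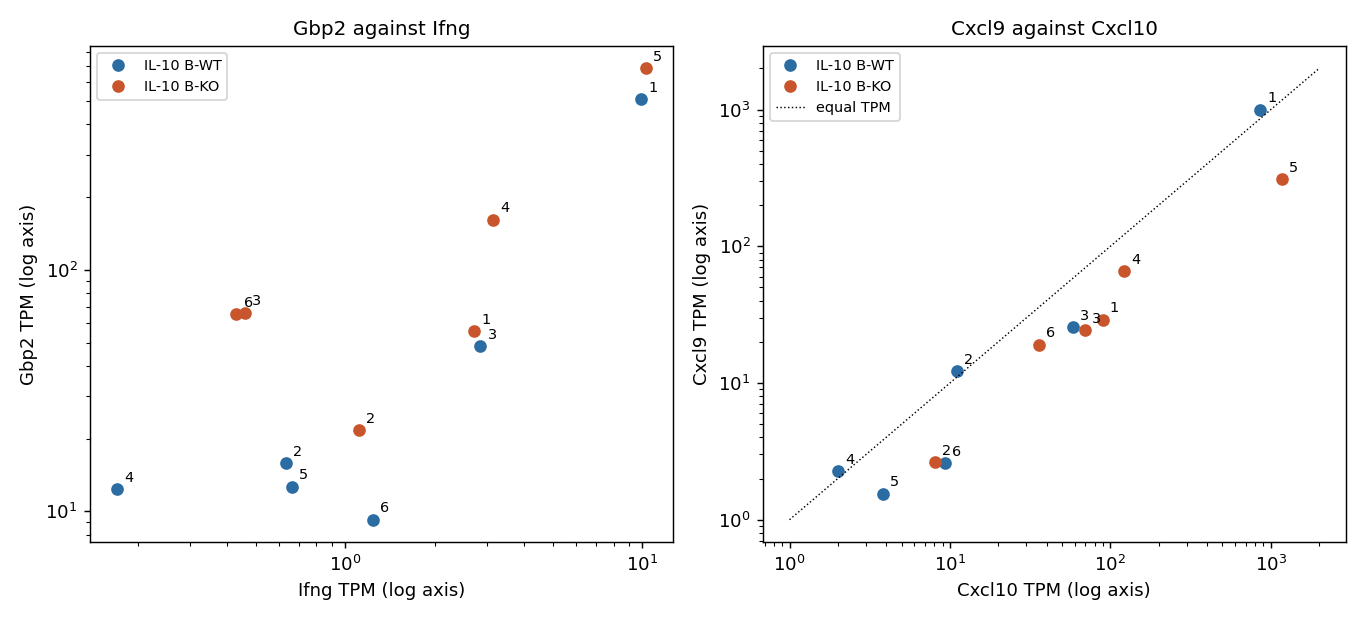
Left, Gbp2 against Ifng, and right, Cxcl9 against Cxcl10, in TPM on log axes, with 1 point per lung labelled by replicate, IL-10 B-WT in blue and IL-10 B-KO in orange, and a dotted line at equal TPM on the right. IL-10 B-KO replicates 3 and 6 hold 66.5 and 65.7 TPM of Gbp2 at 0.46 and 0.43 TPM of Ifng, and all 6 IL-10 B-KO lungs lie below the line for Cxcl9.

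The 3 genes whose pattern was most like that of the members, by Spearman's rho with their mean z score over 12 lungs among all tested genes, were Nlrc5 (0.993), Ifi47 (0.986) and Gm4951 (0.979). Nlrc5 activates MHC class I genes, and Ifi47 and Gm4951 are immunity related GTPases. Nlrc5 ranged from 14.7 to 152 TPM in control and from 29.5 to 116 TPM in knockout lungs, with the highest levels again in control replicate 1 and knockout replicate 5. Their log2 fold changes lay between 0.68 (Nlrc5) and 0.89 (Gm4951).

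Other genes of the same families showed similar values. Of 7 further Gbp genes, 6 were tested and 6 of 6 were higher in knockout lungs by a median of 0.93 on the log2 scale, with Gbp10 (1.23) and Gbp4 (1.17) leading. Of 7 further immunity related GTPases, 7 of 7 were higher (median 0.79), led by Tgtp1 (1.70) and Gm12250 (1.62). Among all genes, 63.2% were higher. With all 12 lungs, 0 genes of both families passed the threshold and 0 had an unadjusted p up to 0.05. Without control replicate 1, 6 of 6 Gbp genes (median 1.53) and 6 of 7 immunity related GTPases (median 1.25) reached that p, and without both lungs 4 of 6 (median 1.08) and 6 of 7 (median 0.91) did, with 0 past the adjusted threshold (lowest adjusted p 0.0679 and 0.0517, and 0.122 and 0.0892, in limma). Over all genes, 17.9% and 12.7% were higher at that p in these settings, and the median log2 fold changes were 0.16 and 0.15. Control replicate 1 was the highest control lung for each gene of both families, so that leaving it out had to raise their differences. Without knockout replicate 5 none reached that p (medians 0.51 and 0.45), beside 3.4% of all genes that were higher at it. On the side of the chemokine receptor, Cxcr3, carried by T and NK cells, was at 0.54 and Dpp4, the protease that trims CXCL9 and CXCL10, at −0.63 (adjusted p = 0.611 and 0.429), and Cxcl11 was below the filter. Dpp4 was lower at an unadjusted p up to 0.05 without control replicate 1 (adjusted p = 0.135 in limma) and without both lungs (adjusted p = 0.260). Control replicate 1 held the least Dpp4 of the control lungs (14.85 TPM), so that leaving it out had to widen this difference.

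Of 14 other interferon gamma targets, 14 were higher in knockout lungs, their median log2 fold change being 0.73, and 2 had an unadjusted p up to 0.05 in limma, beside 6.83% of all genes that were higher at that p. These were Fcgr1, the high-affinity receptor for IgG on macrophages (log2 fold change 2.15, adjusted p = 0.328), and Psmb8, a subunit of the immunoproteasome (0.98, adjusted p = 0.395). Of 12 genes known mainly as type I interferon targets, 12 were higher with a median of 1.00, and Oas1a, an antiviral sensor of double-stranded RNA, had an unadjusted p up to 0.05 (1.34, adjusted p = 0.341). Among all genes, 63.2% were higher in knockout lungs at any p. With all 12 lungs none of these genes passed the adjusted threshold. Without control replicate 1, 11 of the 14 and 11 of the 12 were higher at an unadjusted p up to 0.05 (medians 1.15 and 1.58), beside the 17.9% of all genes above. Fcgr1 (log2 fold change 2.75, adjusted p = 0.0394), Nos2, the inducible nitric oxide synthase (2.15, adjusted p = 0.0479), and Oas1a (1.76, adjusted p = 0.0370) then passed the adjusted threshold, as did 3.85% of all genes. Control replicate 1 was the highest control lung for every gene of both lists (65.7, 128 and 64.0 TPM for Fcgr1, Nos2 and Oas1a). Leaving it out therefore had to raise their differences, and these passes give no independent support. Without both lungs 9 of the 14 and 9 of the 12 reached an unadjusted p of 0.05 (medians 0.92 and 1.29) and 0 passed (lowest adjusted p 0.0872 and 0.0766). Without knockout replicate 5, Fcgr1 alone reached it, and the medians were 0.52 and 0.68. With all 12 lungs the medians of type I interferon genes and of the members were thus 1.00 and 1.13, and whether they differ was not tested.

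Markers of the cells that could carry or induce the members were read in the same lungs, and their part in the result was not tested. Of 6 monocyte and macrophage markers, 6 were higher in knockout lungs at an unadjusted p up to 0.05 (median log2 fold change 1.61), as were 6 of 6 neutrophil markers (median 1.90), with 0 past the adjusted threshold in either list. Among all genes, 6.83% were higher at that p. Without control replicate 1, 2 of the 6 monocyte and macrophage markers (median 2.00, lowest adjusted p 0.0361 in limma) and 6 of the 6 neutrophil markers (median 2.25, lowest adjusted p 0.0342) passed the adjusted threshold, as 0 of the 10 members did. In that setting 2.3% of all genes passed in the higher direction. Control replicate 1 was the highest control lung for each of these markers too, so that leaving it out had to raise their differences. Without both lungs 6 of 6 in each list reached an unadjusted p of 0.05 and 0 passed (medians 1.89 and 1.92), and without knockout replicate 5, 3 and 5 of 6 reached it. The shares of all genes higher at that p were 12.7% without both lungs and 3.4% without knockout replicate 5. Over the 12 lungs, Spearman's rho with the mean z score of the members was 0.783 for the summed monocyte and macrophage markers, 0.748 for neutrophil, 0.664 for alveolar macrophage, −0.664 for endothelial, −0.510 for lung epithelial and −0.364 for B cell markers, a description of sums measured in the same libraries. A sum follows its most abundant genes, and rho was not computed for single markers. Chil3 made up 1397 of 1481 TPM of the alveolar macrophage sum in knockout replicate 5. Scgb1a1 made up 87750 of 102092 TPM of the lung epithelial sum in control replicate 4. Of 5 alveolar macrophage markers, 4 were higher in knockout lungs and 1, Pparg, was lower. Of 6 lung epithelial markers, 3 were higher and 3, Scgb1a1 among them, were lower. The summed monocyte and macrophage markers ranged from 84.5 to 1672 TPM in control and from 185 to 1846 TPM in knockout lungs. They were highest in knockout replicate 5 (1846 TPM), knockout replicate 3 (1742 TPM), control replicate 1 (1672 TPM) and knockout replicate 6 (1509 TPM). Gbp2 in these 4 lungs was 682, 66.5, 509 and 65.7 TPM, so that knockout replicates 3 and 6 held less Gbp2 than the other 2 of these lungs. Summed neutrophil markers were likewise higher in knockout replicates 6 (4961 TPM) and 3 (4413 TPM) than in control replicate 1 (2475 TPM), whose Gbp2 was higher than in both.

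Of 6 T cell markers, 3 were higher and 3 lower in knockout lungs (median 0.02), and of 6 NK cell markers 6 were higher (5 after median centring, median 0.28), with 0 at an unadjusted p up to 0.05 in either list. Among all genes, 63.2% were higher. The rho of their sums with the mean z score of the members was 0.545 for T cell and 0.413 for NK cell markers. T cell markers were highest in knockout replicate 1 (138 TPM) and control replicate 2 (127 TPM), and NK cell markers in knockout replicate 2 (145 TPM) and knockout replicate 1 (128 TPM), whereas control replicate 1 held 57.2 and 65.3 TPM and knockout replicate 5 held 38.7 and 52.1 TPM of the T and NK cell markers. All 5 B cell markers were lower in knockout lungs at an unadjusted p up to 0.05, with Cd79a past the adjusted threshold. In either direction, 12.5% of all genes reached that p and 0.495% passed the threshold. Cd79a also passed without control replicate 1 and without both lungs, but not without knockout replicate 5 (adjusted p = 0.0670 in limma). The summed B cell markers of knockout replicates 2 (66.6 TPM) and 6 (42.9 TPM) were near those of control lungs (49.0 to 753 TPM), and the other 4 knockout lungs held 5.21 to 10.2 TPM. The labelled tissue was borne out by its epithelial markers, which summed to between 20435 and 110878 TPM in every lung.

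**Figure D4:**
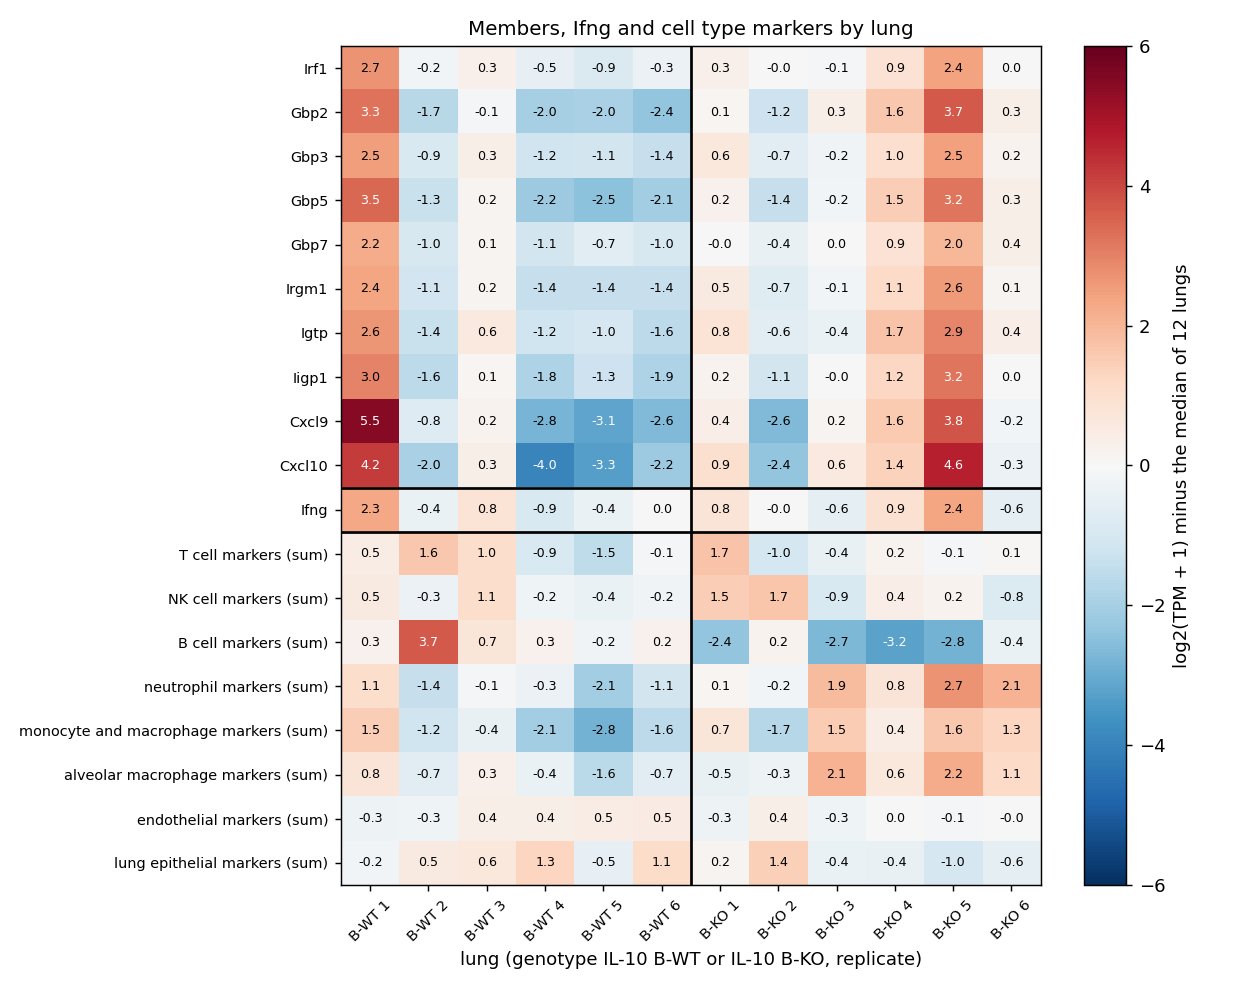
Log2(TPM + 1) of each member, of Ifng, and of the summed markers of each cell type, minus the median of the 12 lungs, with 1 column per lung (IL-10 B-WT on the left, IL-10 B-KO on the right) and each value printed in its cell. The members rise and fall as 1 block across lungs, whereas IL-10 B-KO replicates 3 and 6 are high in neutrophil and macrophage markers but near 0 in the members.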

How the data were processed

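RNA-seq of whole lung from 12 LPS-treated mice, 6 per genotype, was analyzed. The authors deposited 1 table with the TPM of every gene in each library, not pooled and rounded to 2 decimals. Per the labels, fastp, HISAT, RSEM and the build GRCm38.p5 were used upstream, and the annotation release is not given in the sources used here. Columns were matched to samples by name, and 0 columns were left out. The depth behind the TPM is unknown, and no count model was fitted.

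The genotypes were compared with limma 3.58.1 under R 4.3.3, using lmFit and trended eBayes with log2(TPM + 1) as response and no other term. The 15148 genes that reached 1 TPM in 6 or more libraries were tested, and Benjamini-Hochberg adjustment ran over all of them. Single values were compared by two-sided exact permutation tests over all arrangements of the lungs, 924 for 6 against 6 and fewer where lungs were left out. Correlations were tested with 100000 resamples over 12 or 10 lungs, and exactly within a genotype. The limma procedure was tested on simulated data, and the permutation test and the exact correlation test on constructed values with a known answer. Alternatives were another pseudocount (0.1), omission of the filter, a higher filter (mean TPM 5 or more), removal of 395 immunoglobulin genes before rescaling, median centring, quantile normalization, weights per array, a replicate block, and omission of each lung. Positions were taken from GENCODE M21 (52133 of 55414 IDs matched) and promoters from RefSeq GRCm38.p6. SciPy 1.17.1, NumPy 2.4.6, pandas 2.3.3, matplotlib 3.10.9 and Python 3.11.15 were used.

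The members, the gene lists and the tests were chosen with earlier results of these data known. Genes named are the members, Il10, Cd79a and Ifng, those of each list with an unadjusted p up to 0.05 or otherwise its 2 largest differences, and the 3 genes most like the members. An item of the pathway is not reported here.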

Additional observations from a re-analysis of the deposited data

Results flagged for a closer look

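A lung was singled out where its gap to the next lung, divided by the range of its 6 lungs in TPM, exceeded Dixon's 95% critical value for 6 values. Chance exceeds that value in about 5% of groups where values are normally distributed. TPM of these genes were skewed to high values, so that this rate does not hold on the TPM scale. Control replicate 1 was the highest of its group for 10 of 10 members. This share of the range was 0.8835 for Irf1, 0.9219 for Gbp2, 0.8375 for Gbp3, 0.9134 for Gbp5, 0.8452 for Gbp7, 0.8421 for Irgm1, 0.8061 for Igtp, 0.8957 for Iigp1, 0.9761 for Cxcl9 and 0.9342 for Cxcl10. Knockout replicate 5 stood apart for 9 of 10 members, all but Igtp (0.6242). Its share was 0.7999 for Irf1, 0.7885 for Gbp2, 0.7176 for Gbp3, 0.7317 for Gbp5, 0.6636 for Gbp7, 0.6983 for Irgm1, 0.7843 for Iigp1, 0.7939 for Cxcl9 and 0.9031 for Cxcl10. On the log2(TPM + 1) scale 1 member stood apart in control and 0 in knockout lungs. Since the members moved together, these are not separate events.

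The same lungs stood apart for Ifng, control replicate 1 with 0.7251 and knockout replicate 5 with 0.7252. Control replicate 2 stood apart for Cd79a, with 258.6 TPM and a share of 0.961.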

How the results depend on the processing

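In all 21 alternatives 0 of the 10 members passed the adjusted threshold, and each member was higher in knockout lungs in each of them, 210 of 210 values. The count of members at an unadjusted p up to 0.05, 0 over all lungs, became 3 with array quality weights (Gbp2, Igtp and Irgm1), 10 without control replicate 1, the highest control lung for every member, and 9 without both that lung and knockout replicate 5, a setting added after the data were seen. With single lungs left out this count ran from 0 to 10, the count past the adjusted threshold from 0 to 0, and the median log2 fold change from 0.64 (without knockout replicate 5) to 1.80 (without control replicate 1). In the other planned settings the median ran from 0.97 (quantile normalization) to 1.43 (array quality weights). Median centring moved the median of all genes from 0.10 to -0.01 and that of the members to 1.02. The replicate block gave the same median of 1.13 and 0 members at an unadjusted p up to 0.05. Lungs with the same number did not deviate together (correlations from -0.292 to 0.0458, none best with its own number). No pairing by number was thus seen, though this cannot exclude one. The labels give no batch, and without counts the effect of depth could not be examined.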
